A study of Mus musculus with 15 samples.

Results

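The genes described here are 9 members of the inflammasome and pyroptosis pathway, chosen by name from the 46078 genes counted in the podocyte fraction of mouse kidney. They are the sensors Nlrp3, Aim2 and Nlrc4, the adaptor Pycard, the caspases Casp1 and Casp4, the pore-forming protein gene Gsdmd, and the cytokines Il1b and Il18. The podocyte fraction is the cells of digested kidney cortex that a nephrin antibody retained on a magnetic column, and its RNA was sequenced in male C57BL/6J mice. There were 3 groups. Young mice were 4 months old and received no injection. Aged mice were 21 months old and received 12 mg/kg by intraperitoneal injection each week for 8 weeks, either of the rat anti-mouse PD-1 antibody RMP1-14 (aPD1ab) or of the isotype control antibody 2A3 (IgG2a). The titles of the aPD1ab samples give 47 days in place of 8 weeks. Age and injection therefore differ together between the young mice and either aged group, whereas the aged groups differ in the antibody. The labels list 5 mice in each group, and columns of the count table could be tied to a group for 5 young, 4 aged IgG2a and 4 aged aPD1ab mice. Replicate numbers below only name the libraries and carry no order or pairing.

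Inflammasomes are cytosolic complexes that form when a sensor meets microbial products, cytosolic DNA or signs of cell damage. The sensor recruits caspase-1, in most cases through the adaptor ASC, which Pycard encodes. Caspase-1 cuts the precursors of IL-1β and IL-18 into their secreted forms and cuts gasdermin D, whose fragment opens pores in the cell membrane, a form of lytic death called pyroptosis. Caspase-11, which Casp4 encodes in mice, binds cytosolic lipopolysaccharide and cuts gasdermin D by itself. Transcription of Nlrp3 and Il1b is known to be induced by NF-κB, the step called priming, while activity of the complexes is set after transcription and is not measured by RNA counts. In kidney, macrophages and dendritic cells are a main source of these transcripts, and the pathway has been described in injured podocytes and tubules too.

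The 13 libraries held 19912969 to 32717100 counts on genes. Levels are given as CPM, counts scaled to a common library size, with library sizes scaled by the TMM method, and 3 counts, taken as the floor, were worth 0.0851 to 0.202 CPM. Mitochondrially encoded genes took 23.1% to 30.4% of the counts in young, 29.3% to 54.9% in aged IgG2a and 20.4% to 38.5% in aged aPD1ab libraries. All 8 podocyte markers examined, such as Nphs1 and Wt1, were above the floor in at least 1 library, and so were all markers of 9 other cell types, so the fraction was not of podocytes alone. The aged IgG2a library named replicate 1 stood apart from the others of its group, with 29.3% mitochondrial counts against 38.7% to 54.9%, and 2239 CPM of summed macrophage markers against 5011 to 7009. The labels give no reason to leave it out. Comparisons with the IgG2a group are therefore given with and without it.

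The sensors differed among themselves in how they varied across libraries. Nlrp3 (ENSMUSG00000032691, chromosome 11, 59541568 to 59566956, GRCm38, plus strand), whose protein responds to many signs of membrane and organelle damage, was at 58.2, 64.2, 38.5, 42.3 and 86.3 CPM in the young libraries. It was at 59.6, 97.7, 138 and 43.0 CPM in the aged IgG2a libraries 1 to 4, and at 96.3, 39.6, 64.1 and 107 CPM in the aged aPD1ab libraries 1 to 4. Each group spread over a more than 2-fold range and all ranges overlapped. The log2 fold change of Nlrp3 was 0.63 (SE 0.34, edgeR adjusted p = 0.215) for aged IgG2a against young, -0.17 (SE 0.41, adjusted p = 0.809) for aged aPD1ab against aged IgG2a, and 0.42 (SE 0.30, adjusted p = 0.337) for aged aPD1ab against young. None of these differences passed the threshold, which was 0.05 on the p adjusted across every tested gene, and without replicate 1 the first 2 stayed above it (0.76, adjusted p = 0.136, and -0.32, adjusted p = 0.591).

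Aim2 (ENSMUSG00000037860, chromosome 1, 173350879 to 173466040, plus strand), the sensor of double-stranded DNA in the cytosol, was at 19.0, 24.4, 12.5, 12.6 and 19.7 CPM in young libraries. In the aged IgG2a libraries it was at 15.0, 49.3, 48.8 and 48.1 CPM, so that replicate 1 lay within the young range and the other 3 lay close together at a level above every other library. In the aged aPD1ab libraries it was at 18.9, 10.5, 38.4 and 16.9 CPM, with replicate 3 the highest. Aim2 rose in aged IgG2a against young, with means of 40.3 ± 16.9 (SD, n = 4) and 17.6 ± 5.09 CPM (SD, n = 5) and a log2 fold change of 1.28 (SE 0.35, edgeR adjusted p = 0.0363). Without replicate 1 the change was 1.54 (adjusted p = 2.8e-04). With aPD1ab it was at 21.2 ± 12.0 CPM (SD, n = 4), a log2 fold change against aged IgG2a of -0.97 (SE 0.47, adjusted p = 0.212). Without replicate 1 that change was -1.25 (SE 0.37, adjusted p = 0.0362), and the 3 remaining IgG2a libraries lay above all 4 aPD1ab libraries.

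Nlrc4 (ENSMUSG00000039193, chromosome 17, 74425438 to 74459142, minus strand), which forms an inflammasome with NAIP proteins that bind bacterial flagellin and needle proteins, was at 12.3, 13.2, 9.83, 7.47 and 12.5 CPM in young libraries. It was at 9.10, 17.0, 21.8 and 20.6 CPM in aged IgG2a and at 10.2, 4.35, 10.9 and 6.64 CPM in aged aPD1ab libraries. The IgG2a libraries 2 to 4 were again the highest, and the lowest values were in aPD1ab libraries 2 and 4. Against young, aged IgG2a differed by 0.71 on the log2 scale (SE 0.27, edgeR adjusted p = 0.0882), and by 0.91 (SE 0.18, adjusted p = 0.00190) without replicate 1, where it rose. Against aged IgG2a, aPD1ab gave the most negative change of the 9 genes, -1.13 (SE 0.36, adjusted p = 0.115), which was -1.35 (SE 0.29, adjusted p = 0.0136) without replicate 1. Nlrc4 was also the 1 member whose change in aged aPD1ab against young was negative (-0.45, SE 0.27, adjusted p = 0.252), though this did not pass the threshold.

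Pycard (ENSMUSG00000030793, chromosome 7, 127989708 to 127993867, minus strand), the gene of the adaptor ASC, varied least. It was at 16.1, 15.8, 16.9, 14.7 and 15.0 CPM in young libraries and at 22.03, 26.4, 23.0 and 24.3 CPM in aged IgG2a libraries, with no overlap, replicate 1 included. In aged aPD1ab libraries it was at 25.5, 15.2, 20.3 and 17.4 CPM, across both other ranges. Pycard rose in aged IgG2a against young by 0.68 on the log2 scale (SE 0.10, edgeR adjusted p = 0.00581), the smallest adjusted p of the 9 genes in that comparison. The change with aPD1ab against aged IgG2a was -0.32 (SE 0.17, adjusted p = 0.245). Without replicate 1 these were 0.72 (adjusted p = 1.4e-04) and -0.37 (adjusted p = 0.129). In aged aPD1ab against young, Pycard did not pass with all libraries. With 1 library left out its change was 0.18 to 0.43 (edgeR adjusted p = 0.0360 to 0.312), passing only without aPD1ab replicate 2. The exons of Pycard share 485 bases with Gm45205 on the other strand, and the strand setting of the counting is not given in the sources used here, so reads of that gene and of Pycard cannot be told apart.

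Windows of 300 bases around the start of transcription (250 before and 50 after it, RefSeq on GRCm38.p6) were found for 8 of the 9 members, Gsdmd being the other. They were searched on both strands for the PU.1 core GAGGAAG, which a myeloid factor binds, for part of the NF-κB motif, GGGANTTTC, for part of the interferon response motif, GAAANNGAA, for the AP-1 motif TGANTCA and for the CRE motif TGACGTCA. Of 32851 such windows of all genes, 13.6% held the first, 1.11% the second, 8.56% the third, 7.81% the fourth and 1.79% the fifth. Matches were found in the windows of Nlrp3, Aim2 and Pycard, which are printed 5′ to 3′ on the strand of the gene with matches in capitals. The window of Il1b, the member with the highest level, holds none of these letters and is printed for comparison.
Nlrp3, chr11:59542436-59542735, plus strand: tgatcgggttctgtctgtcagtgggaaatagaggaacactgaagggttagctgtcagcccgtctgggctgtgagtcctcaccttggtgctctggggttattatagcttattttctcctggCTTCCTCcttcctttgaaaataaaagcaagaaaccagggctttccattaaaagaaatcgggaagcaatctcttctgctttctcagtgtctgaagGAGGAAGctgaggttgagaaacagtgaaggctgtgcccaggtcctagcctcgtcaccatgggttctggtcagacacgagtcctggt
Aim2, chr1:173420354-173420653, plus strand: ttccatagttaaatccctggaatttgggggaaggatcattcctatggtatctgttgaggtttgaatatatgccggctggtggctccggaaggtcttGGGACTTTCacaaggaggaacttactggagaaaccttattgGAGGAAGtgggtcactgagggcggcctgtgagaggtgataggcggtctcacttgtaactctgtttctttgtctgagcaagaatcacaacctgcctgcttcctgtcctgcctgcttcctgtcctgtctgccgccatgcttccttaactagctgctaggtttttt
Pycard, chr7:127993818-127994117, minus strand: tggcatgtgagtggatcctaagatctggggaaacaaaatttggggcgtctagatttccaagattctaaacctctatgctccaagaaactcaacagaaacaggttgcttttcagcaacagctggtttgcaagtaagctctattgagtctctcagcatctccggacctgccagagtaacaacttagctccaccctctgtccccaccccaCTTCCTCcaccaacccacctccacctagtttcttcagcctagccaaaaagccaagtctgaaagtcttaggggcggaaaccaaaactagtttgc
Il1b, chr2:129371090-129371389, minus strand: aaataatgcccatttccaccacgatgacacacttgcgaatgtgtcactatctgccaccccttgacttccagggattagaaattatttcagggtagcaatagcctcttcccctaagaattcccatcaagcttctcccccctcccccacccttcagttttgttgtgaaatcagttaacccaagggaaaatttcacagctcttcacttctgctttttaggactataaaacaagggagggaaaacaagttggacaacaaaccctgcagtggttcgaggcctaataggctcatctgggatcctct
In Nlrp3, the second of 2 listed starts, GAGGAAG began at position -36 from the start and its reverse complement at position -130. In Aim2, GAGGAAG began at position -113 and the NF-κB letters at position -154. In Pycard the reverse complement of GAGGAAG began at position -43. No matches overlapped. A match only describes the letters of a window, and windows of Nlrc4, Casp1, Casp4 and Il18 held none.

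Casp1 (ENSMUSG00000025888, chromosome 9, 5298517 to 5307265, plus strand), the protease shared by the inflammasomes, followed the same libraries as Aim2. It was at 17.2, 20.4, 15.1, 11.2 and 18.9 CPM in young, 16.4, 41.2, 36.8 and 36.2 CPM in aged IgG2a, and 19.3, 11.3, 28.5 and 17.2 CPM in aged aPD1ab libraries. IgG2a replicate 1 lay within the young range and the other 3 above all young and all aPD1ab libraries. Casp1 rose in aged IgG2a against young, from 16.6 ± 3.62 (SD, n = 5) to 32.7 ± 11.1 CPM (SD, n = 4), a log2 fold change of 1.06 (SE 0.27, edgeR adjusted p = 0.0305) that was 1.28 without replicate 1. With aPD1ab the level was 19.1 ± 7.11 CPM (SD, n = 4), a log2 fold change against aged IgG2a of -0.81 (SE 0.35, adjusted p = 0.170). Casp1 fell without replicate 1, by 1.05 on the log2 scale (SE 0.26, adjusted p = 0.0212).

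Casp4 (ENSMUSG00000033538, chromosome 9, 5308828 to 5336783, plus strand), the gene next to Casp1, encodes caspase-11 of the non-canonical pathway. Its levels were 15.4, 18.2, 14.1, 10.998 and 16.04 CPM in young, 18.4, 29.5, 40.9 and 16.2 CPM in aged IgG2a, and 16.2, 11.5, 21.0 and 22.3 CPM in aged aPD1ab libraries. Unlike Casp1, it was lowest of the IgG2a libraries in replicate 4. Casp4 rose in aged IgG2a against young by 0.89 (SE 0.27, edgeR adjusted p = 0.0465), close to the threshold, and changed by -0.59 (SE 0.32, adjusted p = 0.256) with aPD1ab against aged IgG2a. Without replicate 1 these were 1.02 (adjusted p = 0.0110) and -0.75 (adjusted p = 0.110).

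Gsdmd (ENSMUSG00000022575, chromosome 15, 75862327 to 75867408, plus strand), whose cleaved protein forms the pyroptotic pore, was at 28.6, 34.6, 28.3, 20.3 and 28.8 CPM in young libraries. It was at 19.7, 64.3, 51.1 and 61.9 CPM in aged IgG2a and at 33.05, 20.6, 36.8 and 25.98 CPM in aged aPD1ab libraries. Replicate 1 was below every young library, while the other 3 IgG2a libraries were above every young and every aPD1ab library. The change in aged IgG2a against young was therefore 0.90 (SE 0.31, edgeR adjusted p = 0.0727) with replicate 1 and 1.15 (SE 0.15, adjusted p = 1.8e-04) without it. Against aged IgG2a, aPD1ab changed it by -0.80 (SE 0.36, adjusted p = 0.188) with replicate 1 and by -1.07 (SE 0.20, adjusted p = 0.00872) without it. In aged aPD1ab against young Gsdmd differed by 0.061 (SE 0.19, adjusted p = 0.843).

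Il1b (ENSMUSG00000027398, chromosome 2, 129364570 to 129371139, minus strand), the gene of the fever-inducing cytokine IL-1β, was at 701, 664, 458, 390.2 and 899 CPM in young libraries. It was at 699, 1116, 1617 and 423 CPM in aged IgG2a and at 1109.5, 404, 804 and 729.8 CPM in aged aPD1ab libraries. IgG2a replicate 3 was the highest of all libraries and IgG2a replicate 4 the lowest of its group, and all groups overlapped. Il1b did not pass the threshold in aged IgG2a against young (0.71, SE 0.38, edgeR adjusted p = 0.208), in aged aPD1ab against aged IgG2a (-0.37, SE 0.44, adjusted p = 0.609) or in aged aPD1ab against young (0.31, SE 0.31, adjusted p = 0.498). Without replicate 1 the first of these was 0.83 (adjusted p = 0.128) and the second -0.51 (adjusted p = 0.424). Its counts were high, 6286 to 30219 in a library, so the spread lay between libraries and was not set by counting error. Its antisense neighbour Il1bos shares 25 exon bases with it and held 636 counts in all libraries together against 250738 for Il1b.

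Il18 (ENSMUSG00000039217, chromosome 9, 50554827 to 50581840, plus strand), the gene of the cytokine that drives interferon-γ release, had the lowest mean CPM in each group, with 87 to 358 counts in a library. It was at 3.82, 4.33, 3.46, 3.20 and 3.95 CPM in young, 5.67, 14.6, 7.49 and 9.48 CPM in aged IgG2a and 4.26, 7.45, 6.33 and 5.81 CPM in aged aPD1ab libraries. Every IgG2a library lay above every young library, and of the aPD1ab libraries replicate 1 alone lay within the young range. Il18 rose in aged IgG2a against young by 1.39 (SE 0.26, edgeR adjusted p = 0.0135), the largest change of the 9 genes, and by 1.57 (adjusted p = 2.0e-04) without replicate 1. It rose in aged aPD1ab against young too, by 0.68 (SE 0.19, adjusted p = 0.0269), with means of 5.96 ± 1.33 (SD, n = 4) and 3.75 ± 0.438 CPM (SD, n = 5). Between the aged groups it changed by -0.67 (SE 0.33, adjusted p = 0.212), and by -0.86 (SE 0.28, adjusted p = 0.0506) without replicate 1. Il18 overlaps Bco2 on the other strand, with 0 exon bases shared. Its rise in aged IgG2a held whichever library was left out, with adjusted p values up to 0.0392, whereas its rise in aged aPD1ab was called with 3 of the 9 libraries left out in turn (young 2, young 5 and aPD1ab 1) and missed the threshold with the other 6, with adjusted p values up to 0.0642.

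**Figure D1:**
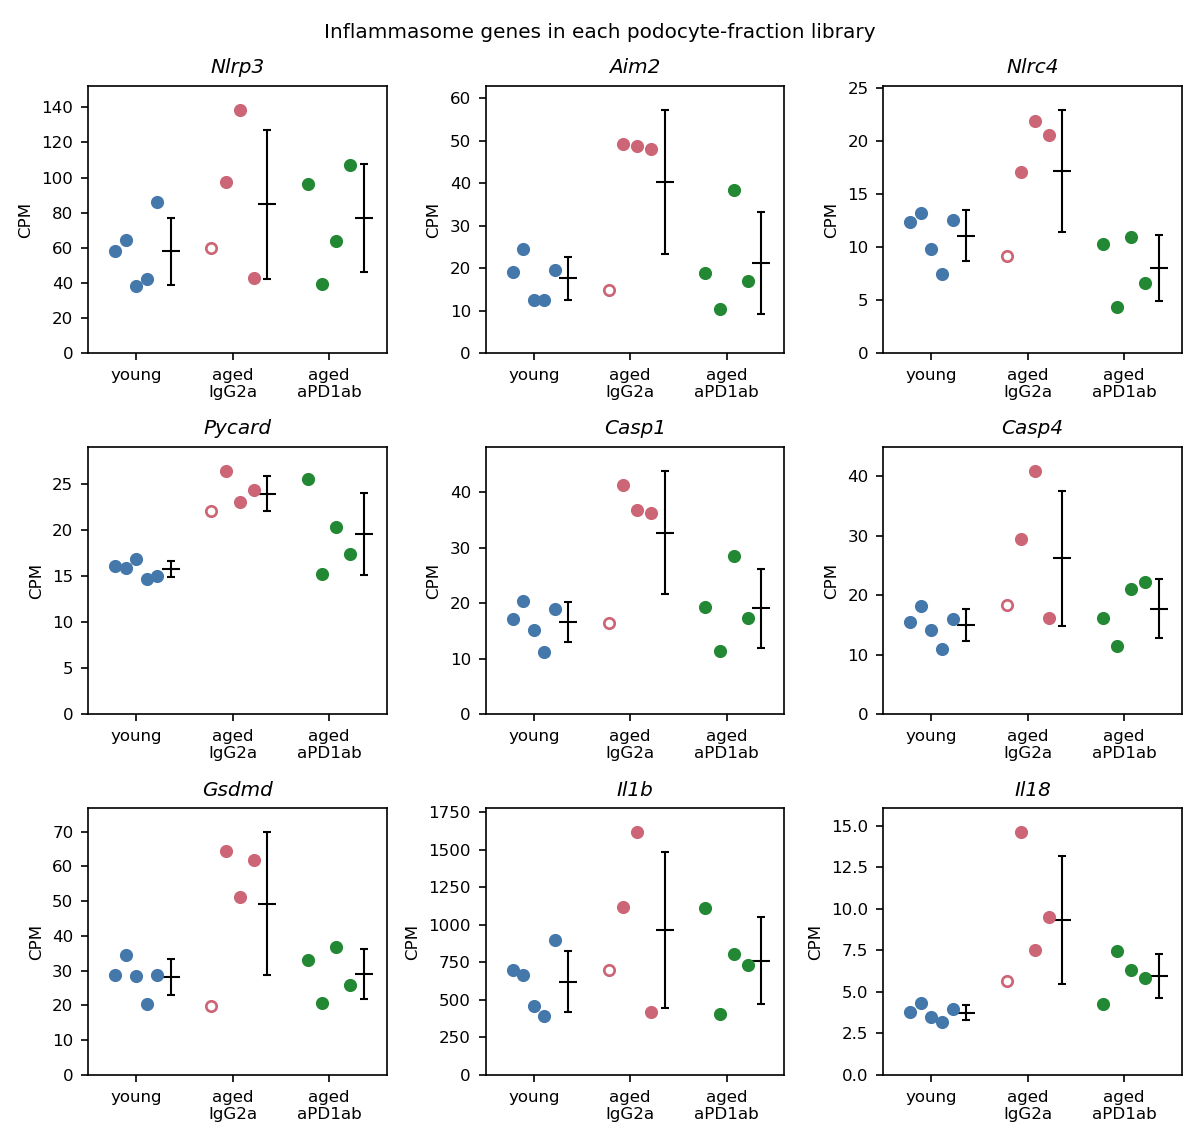
Level in CPM (vertical axes, each from 0) of the 9 genes in each library, by group. Points are libraries, the open point is aged IgG2a replicate 1, and bars are the mean ± SD. For Aim2 and Casp1 the open point sits among the young points, and for Gsdmd below them. In these genes the other 3 aged IgG2a points sit above all others, and for Il1b and Nlrp3 the groups overlap.

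Over the 13 libraries, then, the members did not vary as a block. In aged IgG2a replicate 4, Aim2 (48.1 CPM), Casp1 (36.2 CPM) and Gsdmd (61.9 CPM) were among the highest values measured, while Il1b (423 CPM), Nlrp3 (43.0 CPM) and Casp4 (16.2 CPM) were the lowest of that group. The genes whose log2 CPM was most like that of each member, out of 16329 genes and by Pearson's r over the 13 libraries, differed in the same way. They are given as a description without a test, since the libraries share group, depth and cell makeup. For Il1b they were Nfkbiz, Cd83 and Nfkbia (r = 0.97, 0.96 and 0.96), and for Nlrp3 they were Cd83, Dusp2 and Marcksl1 (each r = 0.96). Nfkbia and Nfkbiz encode inhibitors or cofactors of NF-κB that are themselves induced by it. For Casp4 they were Ccnl1, Ccrl2 and Cxcr4 (r = 0.95, 0.94 and 0.94). For Aim2 they were Dok1, Sh2d1b1 and Gmfg (r = 0.99, 0.98 and 0.98), for Casp1 Laptm5, Unc93b1 and Arap1 (each r = 0.99) and for Gsdmd Sh3bp2, Pirb and Ehbp1l1 (r = 0.99, 0.99 and 0.98), among which Laptm5, Unc93b1, Gmfg and Pirb are known from blood cells. For Nlrc4 they included Ptpre and Tns4 (each r = 0.98), for Il18 Ms4a6d, Gm7609 and Hap1 (each r = 0.95), and for Pycard Rab3d, Adssl1 and Aldh18a1 (r = 0.95, 0.95 and 0.94).

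Levels of different genes were compared per length, as TPM, counts divided by gene length and then by their sum over all genes, from the exon lengths of GENCODE M21. On this scale Il1b was far above the rest, with means of 820.2 TPM in young, 824 in aged IgG2a and 879 in aged aPD1ab libraries, or 69.2% to 88.8% of the summed TPM of the 9 genes in a library. In young libraries Nlrp3 (36.0 ± 11.9 TPM, SD, n = 5), Gsdmd (29.8 ± 6.32) and Casp1 (27.9 ± 6.83) followed, and their ranges overlapped. Aim2 (12.8 ± 4.32), Pycard (10.4 ± 0.800), Casp4 (10.2 ± 2.15) and Il18 (9.20 ± 1.52) came next, again with overlapping ranges, and Nlrc4 (5.80 ± 1.36) was the lowest. The range of Il1b did not overlap that of any other member, and that of Nlrc4 overlapped only the range of Il18. This order depends on the lengths used, which join all annotated exons of a gene. They were 3800 bases for Pycard, 3710 for Casp4 and 1497 for Casp1, whose young means in CPM were close (15.7, 15.0 and 16.6). Other lengths were not tried.

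**Figure D2:**
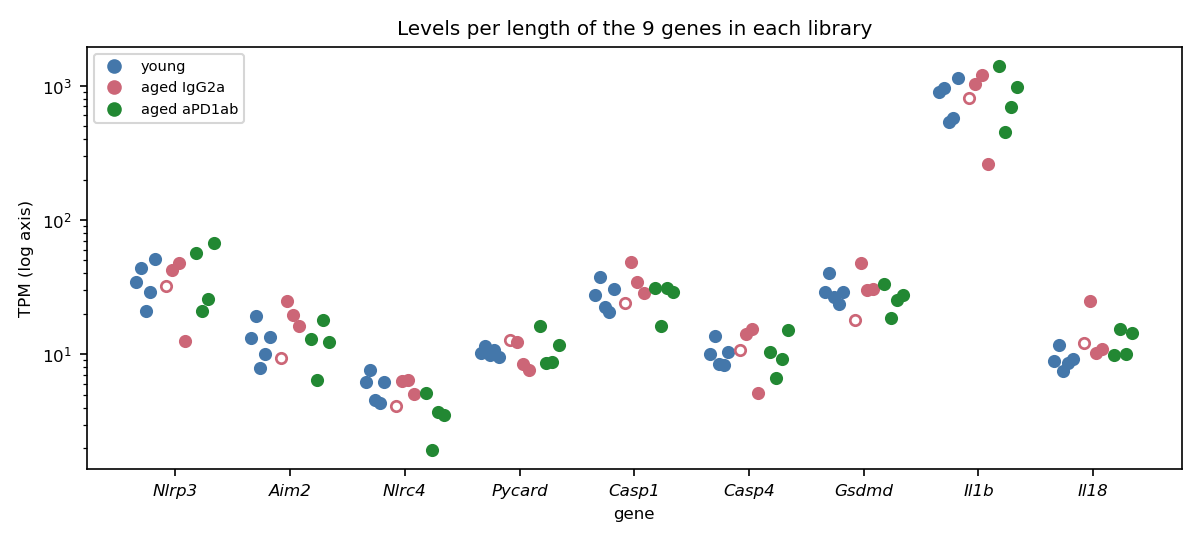
Level per length of each gene in each library, in TPM on a log axis, coloured by group, with aged IgG2a replicate 1 as the open point. Il1b lies between 262 and 1397 TPM in every library and no other member exceeds 67.4 TPM.

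TPM also shows how far a group difference depends on the scale. TPM, which carried no TMM scaling here, moved the median log2 ratio of all 14042 genes compared by -0.61 for aged IgG2a against young, relative to CPM. The shift was 0.40 for aPD1ab against IgG2a and -0.21 for aPD1ab against young. With the mitochondrially encoded genes left out of TPM these shifts were -0.15, -0.13 and -0.28. The cause of the shifts was not tested. Before taking that shift into account, the log2 ratio of the IgG2a and young means in TPM remained positive for Aim2 (0.45), Casp1 (0.29), Casp4 (0.16), Gsdmd (0.092), Il1b (0.0064) and Il18 (0.66) and turned negative for Pycard (-0.021), Nlrp3 (-0.091) and Nlrc4 (-0.084). With the mitochondrially encoded genes left out of TPM, all 9 ratios were positive, from 0.39 for Nlrp3 to 1.17 for Il18. For aPD1ab against IgG2a, the ratios in TPM were positive for Nlrp3 (0.34), Pycard (0.13) and Il1b (0.093) and negative for the other 6, and all 9 were negative with the mitochondrially encoded genes left out. For aPD1ab against young, those of Aim2 (-0.048), Casp1 (-0.053) and Gsdmd (-0.18) were negative in TPM and positive in CPM. With the mitochondrially encoded genes left out they were -0.015, -0.066 and -0.22, and that of Casp4 was then negative too (-0.026).

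The first comparison, aged IgG2a against young, asks what differs between aged mice given the control antibody and uninjected young mice, in which age and injection cannot be told apart. Of the 9 members, all passed the filter on low counts, 5 rose (Pycard, Casp1, Casp4, Aim2 and Il18) and none fell, where 9.05% of the 15953 genes tested rose and 8.38% fell. Their median log2 fold change was 0.89, and that of all genes tested was 0.038. The 4 that did not pass were Il1b, Nlrp3, Gsdmd and Nlrc4. Without replicate 1, 7 rose, Gsdmd and Nlrc4 being added, where 22.1% of 16216 genes rose and 23.5% fell. The calls of Pycard and Il18 held whichever library was left out. Those of Casp1, Aim2 and Casp4 did not, and 2 members passed without IgG2a replicate 2 or 3 or young replicate 1, 3, 4 or 5, 3 without IgG2a replicate 4 and 4 without young replicate 2. All genes called were 2780 with all libraries and ranged from 553 to 7397 with 1 library left out.

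Markers of other cell types moved with this comparison. The summed CPM of 10 macrophage markers was 1566 to 2684 in young libraries and 2239 to 7009 in aged IgG2a libraries, and 8 of the 10 rose. Those of 6 dendritic cell markers ranged from 163 to 276 and from 104 to 365, with 0 higher and 1 lower, and those of 7 monocyte and neutrophil markers from 176 to 345 and from 143 to 598, with 1 of 6 tested higher. The 8 podocyte markers summed to 875 to 1412 CPM in young and 525 to 718 in aged IgG2a libraries, 6 lower and 1 higher. The 8 proximal tubule markers summed to 9173 to 13931 CPM and 1158 to 6723 CPM, all 8 lower. The 6 B and plasma cell markers summed to 87.5 to 194 CPM in young and 340.2 to 989 CPM in aged IgG2a libraries with no overlap, and 2 rose (Jchain and Mzb1). The 6 T cell markers summed to 11.4 to 19.8 CPM and 16.1 to 49.8 CPM, and 2 rose (Cd3d and Lck), or 6 without replicate 1. Of 6 endothelium markers 5 fell, of 6 mesangium markers 2 fell, and of 6 loop of Henle and distal nephron markers 1 rose. The part of these lists in the members' changes was not tested beyond the covariate fits given below. No marker on these lists was at the floor in all libraries. In bulk RNA of this kind, more cells of a type and more RNA of the gene per cell cannot be told apart.

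**Figure D3:**
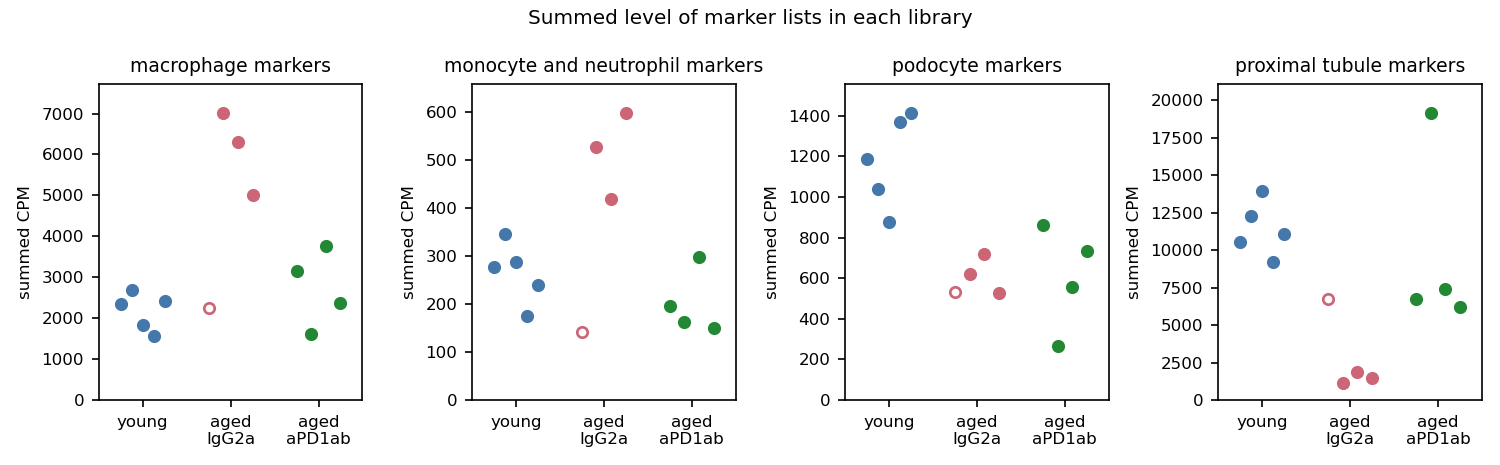
Summed CPM (vertical axes, each from 0) of the markers of macrophages, monocytes and neutrophils, podocytes and proximal tubule in each library, by group, with aged IgG2a replicate 1 as the open point. The other 3 aged IgG2a libraries have 5011 to 7009 CPM of macrophage markers, above all other libraries, and the least proximal tubule signal.

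Each member was also expressed as a share of the summed macrophage markers of the same library. Casp1 was 0.713% to 0.828% of that sum in young, 0.584% to 0.730% in aged IgG2a and 0.613% to 0.756% in aged aPD1ab libraries. Aim2 was 0.686% to 0.909%, 0.668% to 0.959% and 0.600% to 1.02%. Both ratios overlapped across all groups even though the CPM of IgG2a libraries 2 to 4 did not overlap the rest. For Gsdmd the ranges were 1.19% to 1.55%, 0.811% to 1.24% and 0.977% to 1.28%. For Nlrc4 they were 0.477% to 0.539%, 0.243% to 0.411% and 0.270% to 0.325%, so that both aged groups lay below the young one. Il1b ranged from 24.7% to 37.3% in young, 8.43% to 31.2% in aged IgG2a and 21.4% to 35.2% in aged aPD1ab libraries. With the mean log2 CPM of the macrophage markers as a covariate, 0 of the 9 passed in edgeR for aged IgG2a against young (2 had an unadjusted p under 0.05, and 336 of all genes passed), and the change of Casp1 was 0.015 (SE 0.14) and that of Pycard 0.51 (SE 0.13, adjusted p = 0.0673). The marker score itself differs between the groups, so age, injection and the number of macrophages cannot be told apart in such a fit.

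**Figure D4:**
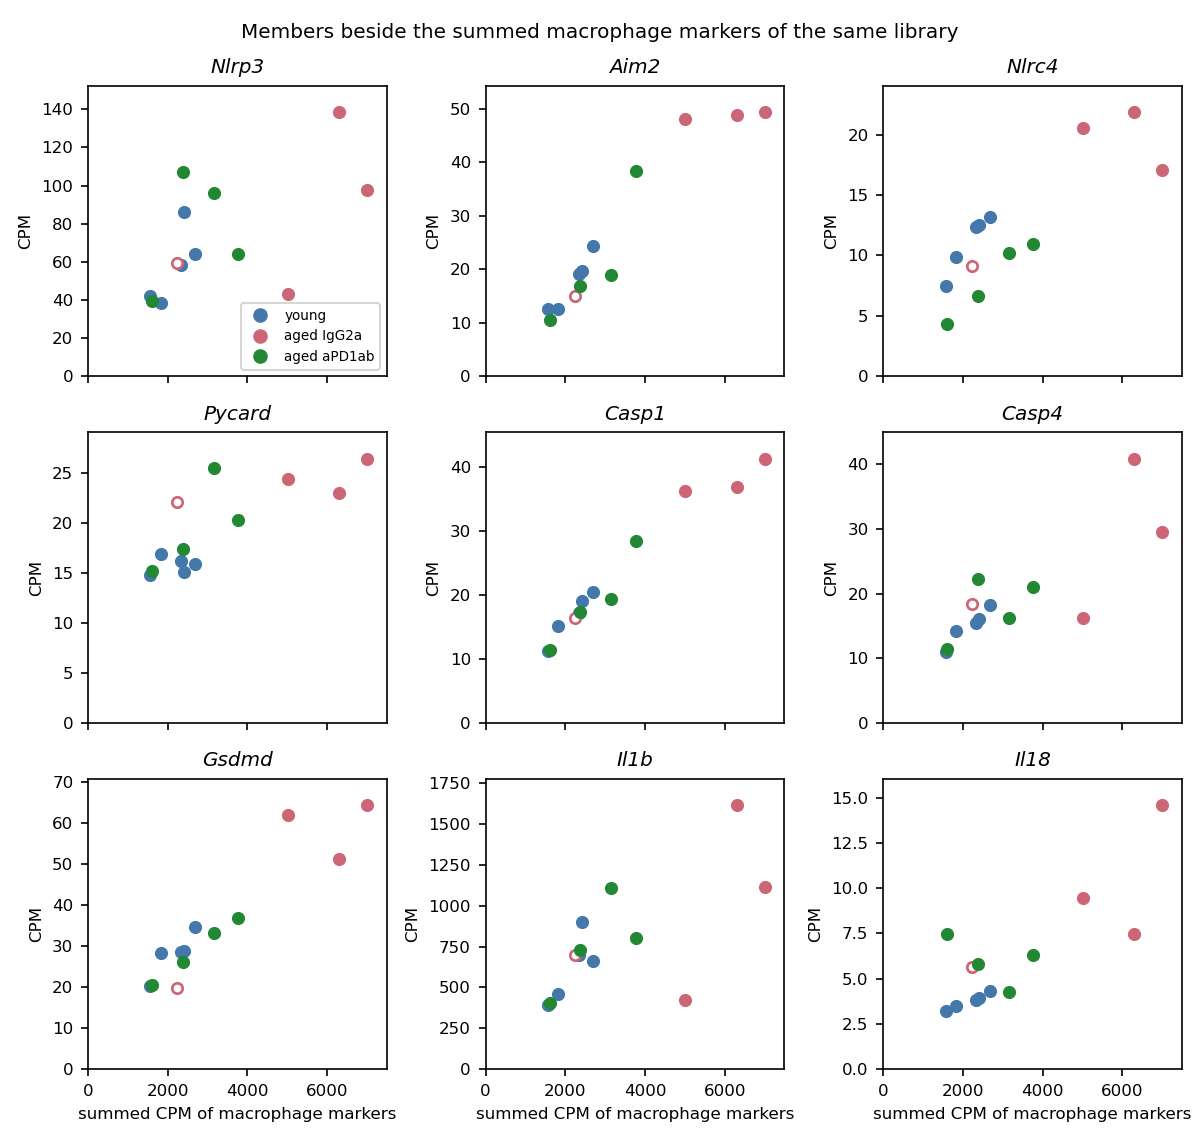
CPM of each gene (vertical axes, each from 0) against the summed CPM of 10 macrophage markers in the same library (horizontal axis), coloured by group, with aged IgG2a replicate 1 as the open point. Points of Casp1, Aim2 and Gsdmd are broadly higher at higher marker sums, though not in a fixed ratio. Gsdmd was 0.880%, 0.918% and 0.811% of the sum in IgG2a libraries 1 to 3, below all young libraries. Casp1 was 0.588% and 0.584% in IgG2a libraries 2 and 3, below all young and aPD1ab libraries. Points of Il1b, Nlrp3 and Casp4 scatter, with 1 aged IgG2a library low at a marker sum of 5011 CPM.

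The second comparison, aged aPD1ab against aged IgG2a, asks what the antibody against PD-1 changes at the same age. It shares the IgG2a libraries with the first, so opposite signs in the pair are linked and were not tested against each other. With all libraries, all 9 fitted log2 fold changes were negative (in TPM the ratios of Nlrp3, Pycard and Il1b were positive), from -0.17 for Nlrp3 to -1.13 for Nlrc4, and none passed in edgeR, 2 having an unadjusted p under 0.05 (Nlrc4 and Casp1), where 0 of 15530 genes passed in either direction (0% higher and 0% lower) and 4341 had an unadjusted p under 0.05. By other tools, 1 of the 9 passed with DESeq2 and with 1 fit of all 3 groups (Nlrc4 both times), and 6 passed with limma voom and sample quality weights, where DESeq2 called 2373, the joint fit 2863 and limma 6160 of all genes. Without replicate 1, 4 members fell (Gsdmd, Nlrc4, Casp1 and Aim2), against 13.2% of the 15770 genes tested that fell and 17.1% that rose. The median of the 9 was then -0.86. Il1b, Nlrp3, Pycard, Casp4 and Il18 did not pass. With any other single library left out, 0 of the 9 and 0 of all genes passed in edgeR. Replicate 1 was singled out by its levels in these same data, so the fit without it is not independent support for a fall.

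The macrophage markers moved with these members here as well. None of the 10 passed with all libraries, and 9 of 10 fell without replicate 1, the group ranges being 2239 to 7009 CPM with IgG2a and 1612 to 3763 CPM with aPD1ab. The 8 proximal tubule markers all rose without replicate 1. Also without it, 3 of 6 T cell, 2 of 6 dendritic cell and 2 of 6 tested monocyte and neutrophil markers fell. Of 8 podocyte markers 3 rose and 1 fell, and of 6 loop of Henle and distal nephron markers 1 rose. The part of these lists in the members' changes was not tested beyond the covariate fits. With the macrophage or the proximal tubule score as a covariate, 0 of the 9 members and 0 of all genes passed in edgeR, with or without replicate 1, and at most 1 member had an unadjusted p under 0.05. The change of Casp1 was then 0.091 (SE 0.18) with the macrophage score and that of Nlrc4 -0.30 (SE 0.24).

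The third comparison, aged aPD1ab against young, asks what differs from youth in treated aged mice, and shares its libraries with the other comparisons. Of the 9 members, 1 rose (Il18) and none fell, where 12.4% of the 15986 genes tested rose and 9.97% fell, and the median log2 fold change of the 9 was 0.27. The macrophage markers summed to similar ranges, 1566 to 2684 and 1612 to 3763 CPM, and none of the 10 passed. Other lists did differ. Of 6 markers each, 2 T cell markers (Cd3d and Lck) and 2 B and plasma cell markers (Jchain and Mzb1) rose. Of 6 dendritic cell markers 3 fell, and of 8 podocyte markers 2 fell. Of 6 mesangium markers 1 rose and 2 fell, and of 6 endothelium markers 1 fell. Of 6 loop of Henle and distal nephron markers 1 rose (Aqp2). The part of these lists in the change of Il18 was not tested. With the macrophage score as a covariate Il18 rose by 0.69 (edgeR adjusted p = 0.0250) and Nlrc4 fell by 0.70 on the log2 scale (SE 0.11, adjusted p = 0.00315), so 2 members passed. In that fit 15.1% of all genes tested rose and 13% fell. The ratios of Il18 to the macrophage sum were 0.161% to 0.204% in young and 0.135% to 0.462% in aged aPD1ab libraries.

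**Figure D5:**
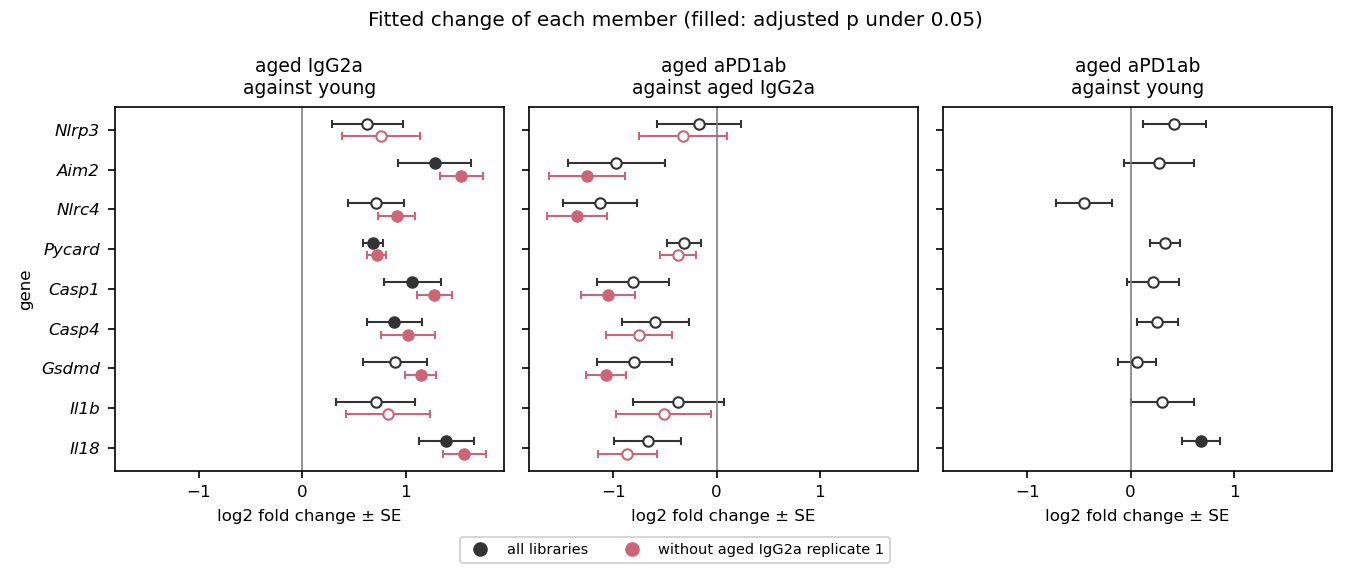
Fitted log2 fold change ± SE of each gene in the 3 comparisons, with all libraries (black) and without aged IgG2a replicate 1 (red, in the comparisons that use it). Filled points have an edgeR adjusted p under 0.05. The points of the first comparison lie above 0 and those of the second below 0, with more filled points once replicate 1 is left out.

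Other genes of the pathway, 40 in 5 lists of sensors, caspases, gasdermins, cytokine genes and genes of priming and activation, were described with the same fits. Of these, 33 could be tested for aged IgG2a against young, and 7 rose and 1 fell, beside the 9.05% of all genes that rose and 8.38% that fell. The counts depended on single libraries, and so did those of all genes, 2780 with all libraries and 553 to 7397 with 1 left out. Without IgG2a replicate 1, 19 rose and 2 fell, beside 22.1% and 23.5% of all genes, whereas 0 passed in edgeR without IgG2a replicate 2 or 3 or young replicate 1 or 3 (13 to 20 had an unadjusted p under 0.05), and 1 to 3 passed without any of the others. With either marker score as a covariate 0 passed and 5 had an unadjusted p under 0.05, where 336 (macrophage) and 49 (proximal tubule) of all genes passed. Over all libraries 15 passed with DESeq2 and 21 with limma voom, beside 4455 and 7423 of all genes. The NAIP proteins are the partners of NLRC4. Naip5, whose protein binds flagellin, rose by 1.26 (SE 0.30, edgeR adjusted p = 0.0254; 1.51 without replicate 1), and Naip6 differed by 0.87 (adjusted p = 0.0708; 1.12 without replicate 1), but these genes are close copies of one another and reads may be split between them. Nlrp6, a sensor of epithelial cells, went the other way, from 52.4 ± 11.6 (SD, n = 5) to 14.8 ± 12.7 CPM (SD, n = 4), and fell by 1.77 on the log2 scale (SE 0.45, adjusted p = 0.0298), or by 2.54 without replicate 1. All 8 proximal tubule markers fell in the same comparison, and with their score as a covariate the change of Nlrp6 was 0.16 and did not pass. Their sums did not overlap, at 9173 to 13931 CPM in young and 1158 to 6723 CPM in aged IgG2a libraries. That fit therefore cannot tell the marker score from the group, and the part of the markers in the fall of Nlrp6 was not tested further. P2rx7, the ATP-gated channel upstream of NLRP3, rose by 1.11 (adjusted p = 0.0340), and Pstpip1, a partner of the sensor pyrin, by 1.22 (adjusted p = 0.0480), which were 1.35 and 1.503 without replicate 1. With 1 library left out at a time, the adjusted p reached 0.0763 for Naip5, 0.104 for P2rx7, 0.134 for Pstpip1 and 0.0895 for Nlrp6. Tlr4, the lipopolysaccharide receptor that starts priming, differed by 0.70 (adjusted p = 0.0705) and rose without replicate 1 by 0.91 (adjusted p = 6.1e-05).

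For aged aPD1ab against aged IgG2a, 34 of the 40 were tested and 0 passed in edgeR with all libraries (11 had an unadjusted p under 0.05, and 5 passed with DESeq2, 7 with the joint fit and 19 with limma voom). Without replicate 1, 12 fell and 1 rose, beside 13.2% and 17.1% of all genes. With any other library left out 0 passed (5 to 13 had an unadjusted p under 0.05), and 0 of all genes passed. Naip2 changed by -1.21 (SE 0.29, adjusted p = 0.109) with all libraries and by -1.44 (SE 0.16, adjusted p = 0.00640) without replicate 1. Naip6 changed by -1.10 (adjusted p = 0.116) and -1.37 (adjusted p = 0.00640), and Naip5 by -0.95 (adjusted p = 0.149) and -1.23 (adjusted p = 0.0103). Tlr4 changed by -1.42 (adjusted p = 0.109) and -1.65 (adjusted p = 0.00863), and Irf2, an activator of Gsdmd transcription, by -0.55 (adjusted p = 0.163) and -0.72 (adjusted p = 0.0182). The mean of Nlrp6 was 14.8 ± 12.7 CPM in IgG2a libraries (SD, n = 4) and 86.7 ± 49.3 CPM in aPD1ab libraries (SD, n = 4). Its log2 fold change was 2.57 (SE 0.61, adjusted p = 0.109) with all libraries, and it rose without replicate 1, by 3.31 (SE 0.53, adjusted p = 0.00761).

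For aged aPD1ab against young, 33 of the 40 were tested, 4 rose and 4 fell, beside 12.4% and 9.97% of all genes, shares near those of the list. The count was 2 higher and 1 lower without aPD1ab replicate 4, and 3 to 9 passed in all with 1 library left out at a time, the fewest without that library. Of all genes, 2369 to 3868 passed in these fits. The calls of Ninj1 and Il1a held whichever library was left out. Those of Myd88, Naip2 and Il1rn did not, with adjusted p values up to 0.0582, 0.0657 and 0.0859. Ninj1, whose protein ruptures the membrane of dying cells, rose by 0.78 (SE 0.16, edgeR adjusted p = 0.00986), from 51.7 ± 5.68 (SD, n = 5) to 87.6 ± 22.2 CPM (SD, n = 4). Il1a, the gene of IL-1α, rose by 1.54 (adjusted p = 0.0126), and so did Il1rn, the gene of the natural antagonist of the IL-1 receptor, by 1.55 (adjusted p = 0.0283). Myd88, the adaptor of Toll-like and IL-1 receptors, rose by 0.38 (adjusted p = 0.0183). Naip2 fell by 0.56 (adjusted p = 0.0227). The genes for gasdermins A and C were at or near 0 in all libraries, the most counts in 1 library being 11, for Gsdmc2.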

How the data were processed

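RNA of the podocyte fraction was sequenced from TruSeq libraries, and per the labels and the submitters' processing notes the reads were aligned with HISAT2 to mm10 (GRCm38) and assigned to genes with featureCounts. The authors deposited whole-number read counts per gene for 46078 genes and 15 libraries, 45229 genes having a symbol; tool versions, annotation release and strand setting are not given in the sources used here. Columns were tied to groups by the animal numbers the study shows in its plot of podocyte samples, and 2 columns could not be tied to a group and were not used. Each library was 1 mouse.

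Every comparison used the libraries of its own groups only, in edgeR 4.0.16 in R 4.3.3 (TMM, filterByExpr, robust quasi-likelihood test, 2-sided), with Benjamini-Hochberg adjustment over all genes tested and a threshold of 0.05; SE is that of the log2 fold change. CPM used TMM-scaled library sizes, and log2 CPM a prior count of 2. TPM used the union of exons in GENCODE M21, and gene positions are from the same annotation. Fits were tested on simulated data. Alternatives were RLE scaling, no filter, DESeq2 1.42.0, limma 3.58.1 voom with sample quality weights, 1 fit of all groups, each library left out, a fold over 2 as well, and macrophage or proximal tubule marker scores as a covariate. Leaving out mitochondrially encoded genes, and the covariates without IgG2a replicate 1, were added after seeing the data.

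The 9 genes, the pathway and marker lists and the motifs were chosen with earlier results of these data known. All 9 genes are named, and of the 40 others up to 6 in each comparison, with the smallest p among those past the threshold with or without IgG2a replicate 1; a few genes these rules select are not reported here. Each member had at least 87 counts in every library, and the part of counting error in the spread of the members with few counts was not tested.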

Additional observations from a re-analysis of the deposited data

Results flagged for a closer look

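Of 57 sets of libraries examined for a single library far from the rest, 6 were set apart by Dixon's 95% criterion for the gap to the nearest library over the range, and chance sets apart about 1 in 20. For Aim2 in the aged IgG2a group, replicate 1 was at 15.0 CPM (14.954) and the others at 48.1 to 49.3 CPM, a gap of 0.964 of the range. In the same group and library the summed dendritic cell markers were low, at 103.813 CPM against 340.5 to 365 CPM in the others. The summed endothelium markers were high there, at 641.889 CPM against 497 to 514 CPM, and so were those of the loop of Henle and distal nephron, at 13735.4 CPM against 5818 to 6350.0 CPM, and those of the proximal tubule, at 6722.59 CPM against 1158 to 1873 CPM. In the aged aPD1ab group, the proximal tubule markers summed to 19124.1 CPM in replicate 2, the library in which Aim2, Nlrc4, Pycard, Casp1, Casp4, Gsdmd, Il1b and Nlrp3 were lowest of that group and Il18 was highest (7.45 CPM against 4.26 to 6.33 CPM), and to 6169 to 7402 CPM in the others. The call of Il18 for aPD1ab against young was lost without that library (0.55, edgeR adjusted p = 0.0588), where Pycard was called instead (adjusted p = 0.0360). The part of these marker levels in the members' values was not tested beyond the covariate fits.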

How the results depend on the processing

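No paired analysis was possible because the labels give the groups no shared replicate numbers and the columns carry none. For aged IgG2a against young, the 5 members called became 3 with 1 fit of all groups, with no filter and with a fold over 2, and 0 with either covariate, replicate 1 in or out; leaving out 1 library gave 2 to 7. All genes called were 2780, and 4455 with DESeq2, 7423 with limma voom, 1353 with a fold over 2, 336 and 49 with the macrophage and proximal tubule covariates, 129 and 0 with these and without replicate 1, and 553 to 7397 with 1 library left out. For aPD1ab against IgG2a, 0 members became 1 with 1 fit of all groups, 1 with DESeq2 and 6 with limma voom, and 0 to 4 with 1 library left out; all genes called were 0, then 2863, 2373 and 6160, and 0 to 4788. For aPD1ab against young, 1 member became 0 with 1 fit of all groups and with a fold over 2, and 2 with either covariate. With 1 library left out it was 0 to 1, Pycard in place of Il18 without aPD1ab replicate 2. All genes called were 3578, and 2902 with 1 fit of all groups and 766 with a fold over 2. They were 4481 and 5291 with the macrophage and proximal tubule covariates, and 2369 to 3868 with 1 library left out.

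Signs turned mainly with the covariates, which differ between the groups themselves. For IgG2a against young, the macrophage score gave log2 changes of -0.16 for Nlrp3, -0.12 for Aim2, -0.20 for Nlrc4, -0.33 for Gsdmd, -0.080 for Il1b, -0.18 for Tlr4, -0.089 for P2rx7, -0.28 for Naip6 and -0.36 for Pstpip1. The proximal tubule score gave -0.051 for Nlrp3, -0.71 for Aim2, -0.46 for Nlrc4, -0.33 for Casp1, -0.92 for Gsdmd, -0.54 for Naip5, -0.69 for Tlr4, -0.62 for P2rx7, -0.84 for Naip6, -0.94 for Pstpip1 and 0.16 for Nlrp6. For aPD1ab against IgG2a, the macrophage score gave 0.46 for Nlrp3, 0.25 for Aim2, 0.091 for Casp1, 0.23 for Gsdmd, 0.30 for Il1b and 0.098 for Naip5. The proximal tubule score gave 0.56 for Nlrp3, 0.67 for Aim2, 0.034 for Pycard, 0.40 for Casp1, 0.067 for Casp4, 0.57 for Gsdmd, 0.36 for Il1b, 0.11 for Naip6, 0.46 for Naip5 and 0.19 for Irf2. For aPD1ab against young, they gave -0.022 for Aim2 and -0.078 for Gsdmd with the macrophage score, and -0.17 for Aim2, -0.070 for Casp1, -0.11 for Gsdmd and -0.022 for Il1b with the proximal tubule score, and limma voom gave -0.0063 for Gsdmd. With 1 library left out, aPD1ab against IgG2a turned to 0.038 and 0.19 for Nlrp3 (without aPD1ab 2 and IgG2a 3; range -0.37 to 0.19) and 0.026 for Il1b (without IgG2a 3; range -0.59 to 0.026), and aPD1ab against young to -0.18 for Aim2 (range -0.18 to 0.49) and -0.045 for Casp1 (without aPD1ab 3) and -0.076, -0.0068 and -0.045 for Gsdmd (without aPD1ab 3, aPD1ab 1 and young 4). In TPM the ratio of the IgG2a and young means of Pycard was -0.021 on the log2 scale, against 0.61 in CPM and 0.46 in TPM without mitochondrially encoded genes. The cause of these changes was not tested.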
